A study of Mus musculus with 32 samples.

Results

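The 10 genes described here belong to pericentral hepatocytes and to Wnt signaling, and were followed in mouse liver: Glul, Oat, Rhbg, Slc1a2, Cyp2e1, Axin2, Lect2, Tbx3, Rnf43 and Lgr5. They were taken by symbol from 2 tables of raw RNA-seq read counts, 1 for females and 1 for males, and all 10 symbols were found among the 41585 entries of each table. All 10 passed the filter on low counts in both sexes, which left 13226 genes in females and 13460 in males for the tests.

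The liver lobule is zoned along the flow of blood. Hepatocytes around the central vein receive Wnt ligands and R-spondins from neighboring endothelial cells. In these hepatocytes β-catenin, kept from degradation by the Wnt signal, enters the nucleus and works with TCF/LEF factors on its target genes. Pericentral hepatocytes take up glutamate and ammonia and turn them into glutamine, and they carry out much of the oxidation of drugs and ethanol, while periportal hepatocytes hold the urea cycle and gluconeogenesis.

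Livers were compared between wild type (WT) and Cyp2b-null mice, both on the C57BL/6 background (C57Bl/6J in the study's methods), fed a normal chow diet (ND) or a high-fat diet deficient in choline and defined in its L-amino acids (CDAHFD), in females and in males. The Cyp2b-null mice lack Cyp2b9, Cyp2b10 and Cyp2b13 in every cell through CRISPR/Cas9 deletion, so their genotype is not limited to hepatocytes, and the WT mice carry no altered allele. The mice were 10 weeks old at the start and were fed for 8 weeks, the CDAHFD holding 62% fat and 0.1% methionine. Each of the 8 groups had 4 libraries, 32 in all.

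Library totals lay between 2906411 and 10166959 counts. The deleted genes matched the labels: Cyp2b13 had 470 to 2351 counts in WT female libraries and at most 2 in any Cyp2b-null library, and in males Cyp2b10 had 33 to 97 counts in ND-fed WT and 1 to 9 in ND-fed Cyp2b-null mice, and Cyp2b9 had 118 to 364 counts in CDAHFD-fed WT and 2 to 7 in CDAHFD-fed Cyp2b-null mice. One library stood apart. CDAHFD-fed Cyp2b-null female replicate 3 had a mean correlation of 0.945 with the other libraries of its group over log2 CPM, the count scaled per library total, and the other 31 libraries had at least 0.961. It had the lowest value of its group for Glul, Oat, Slc1a2, Axin2, Tbx3, Rnf43 and Lgr5 and the highest for Rhbg and Lect2, so results for CDAHFD-fed Cyp2b-null females are given with and without it where it changed a call. The labelled tissue held its defining transcripts: 14 general hepatocyte genes, among them Alb, Ttr and Apoa1, summed to 96820 to 255000 CPM per library.

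Promoter sequence is shown for 4 members. Glul and Axin2 are the enzyme most tightly bound to the pericentral zone and the general Wnt feedback gene, and Slc1a2 and Lect2 are the members whose promoter window held the core of a TCF/LEF site. Sequences are the 250 bases before a transcription start in RefSeq, GRCm38.p6, written 5′ to 3′ on the strand of the gene. Capitals mark the core CTTTGAT or CTTTGTT on either strand, so a match on the opposite strand reads ATCAAAG or AACAAAG. The windows are chr1:153899679-153899928 for Glul (plus strand), chr11:108920099-108920348 for Axin2 (plus strand), chr2:102706188-102706437 for Slc1a2 (plus strand) and chr13:56548539-56548788 for Lect2 (minus strand). The Slc1a2 window precedes a start that lies inside the annotated gene.
Glul: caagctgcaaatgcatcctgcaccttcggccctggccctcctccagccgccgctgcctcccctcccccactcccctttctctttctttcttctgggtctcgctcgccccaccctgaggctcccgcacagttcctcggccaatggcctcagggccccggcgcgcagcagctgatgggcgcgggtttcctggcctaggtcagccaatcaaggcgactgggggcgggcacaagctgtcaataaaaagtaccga
Axin2: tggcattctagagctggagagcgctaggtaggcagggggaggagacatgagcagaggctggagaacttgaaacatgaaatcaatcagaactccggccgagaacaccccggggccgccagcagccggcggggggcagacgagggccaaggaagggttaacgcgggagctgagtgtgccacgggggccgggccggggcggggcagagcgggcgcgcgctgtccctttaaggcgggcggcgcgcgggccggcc
Slc1a2: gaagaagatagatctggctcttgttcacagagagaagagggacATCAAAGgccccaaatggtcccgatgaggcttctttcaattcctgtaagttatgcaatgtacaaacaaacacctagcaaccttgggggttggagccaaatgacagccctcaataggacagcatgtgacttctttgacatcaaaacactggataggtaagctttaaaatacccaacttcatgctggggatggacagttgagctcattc
Lect2: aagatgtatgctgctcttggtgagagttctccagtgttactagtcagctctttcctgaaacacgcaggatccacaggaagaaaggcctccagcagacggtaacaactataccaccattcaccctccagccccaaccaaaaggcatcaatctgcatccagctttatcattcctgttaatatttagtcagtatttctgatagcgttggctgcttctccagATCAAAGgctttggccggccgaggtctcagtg
In Slc1a2 the match began 207 bases before the start, and in Lect2 it began 32 bases before the start. The RefSeq table held windows for 7 of the 10 members (Rnf43 with 2), and 2 of these 8 windows had a match. Of all 32851 windows in the table, 8.06% had one. The windows of Glul, Oat, Cyp2e1, Axin2 and Rnf43 had no match, which says only that these letters are not in these 250 bases. Rhbg, Tbx3 and Lgr5 had no window.

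The levels of the members spanned more than 3 orders of magnitude. In ND-fed WT females, and per kilobase of exon in GENCODE vM21, Cyp2e1 was at 3012 ± 693 CPM per kb (SD, n = 4), Oat at 455 ± 79.4, Glul at 338 ± 27.1 and Lect2 at 194 ± 39.4 CPM per kb. Slc1a2 was at 14.1 ± 2.49, Rhbg at 5.10 ± 2.10, Tbx3 at 4.02 ± 1.60 and Axin2 at 1.42 ± 0.832 CPM per kb. Lgr5 and Rnf43 were lowest, at 0.825 ± 0.341 and 0.641 ± 0.340 CPM per kb. Within this order, Rhbg and Tbx3 did not differ beyond their spread, nor did any pair among Axin2, Lgr5 and Rnf43. Counts were correspondingly uneven: Cyp2e1 had 18496 to 55131 counts per library, and Rnf43 had 7 to 65, Axin2 9 to 94, Lgr5 13 to 99 and Rhbg 16 to 535. These 4 genes therefore carry the most counting error. Of the members, 5 share exon bases with another annotated gene, and the strand setting of the authors' counting is not given in the sources used here, so reads of such pairs cannot be told apart. For Rhbg, 61.4% of the exon bases are shared with Gm38392 on the same strand, and its level is uncertain for that reason. For Glul, Slc1a2, Axin2 and Tbx3 the share with any one gene was at most 3.8%.

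**Figure D1:**
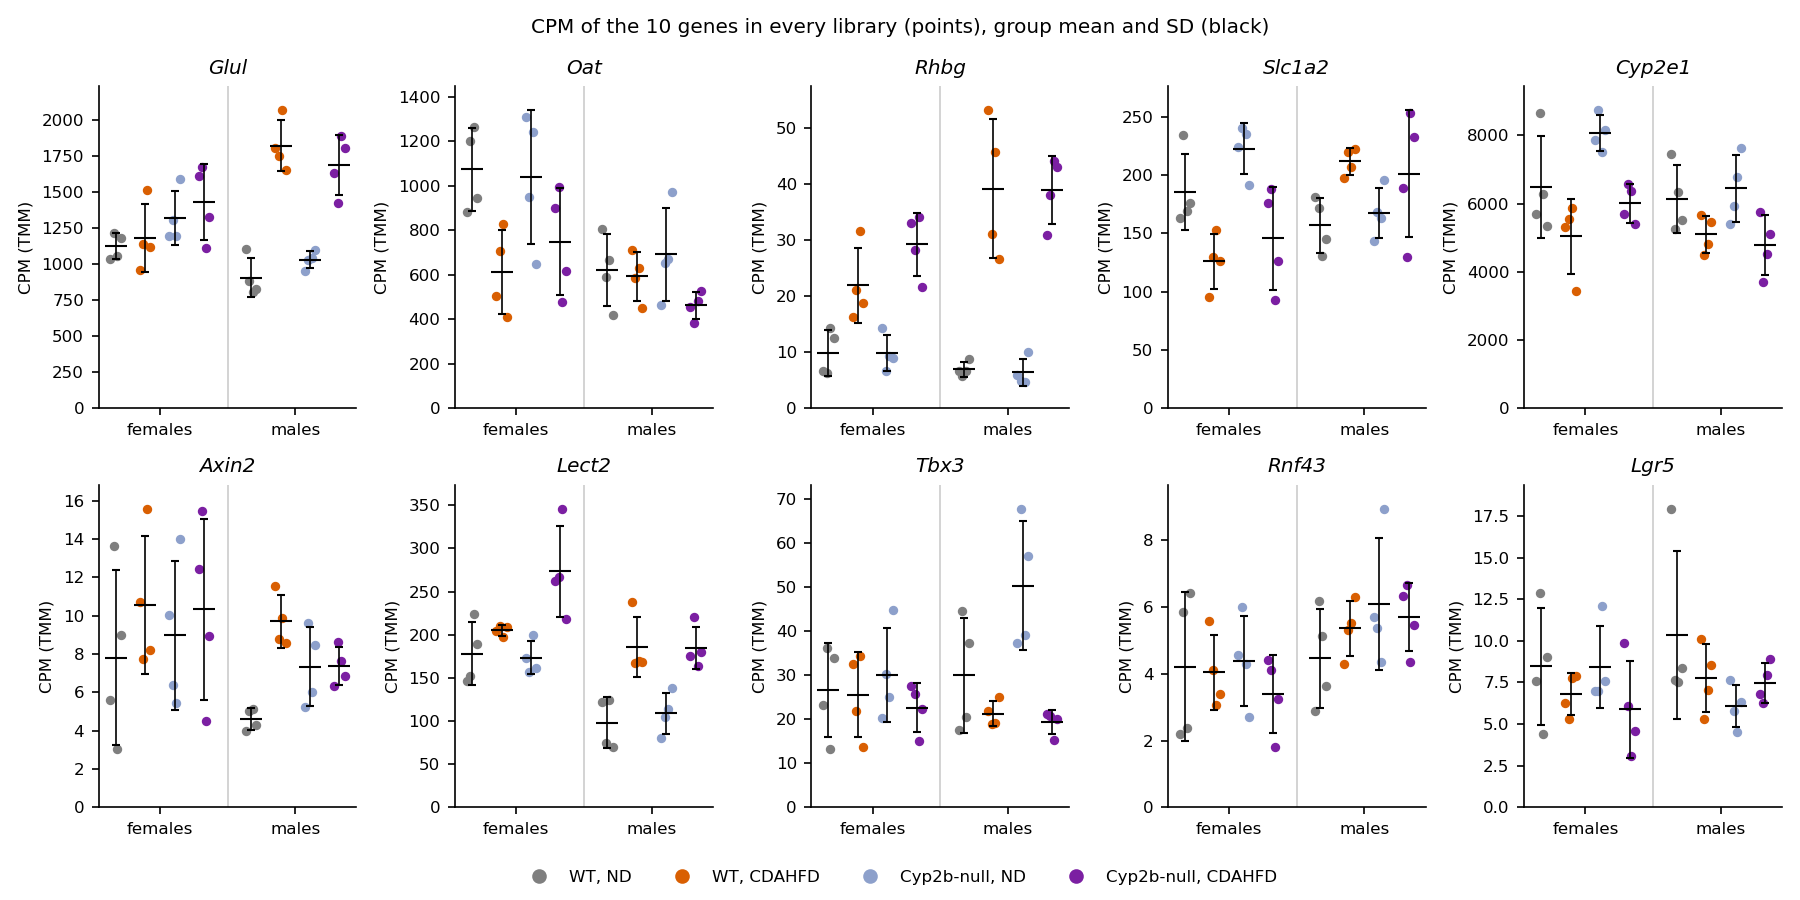
CPM after TMM scaling, set separately in females and males, for the 10 genes in each of the 32 libraries. Each point is a library, the black bar is the group mean and the whiskers are 1 SD (n = 4). Rhbg in males lies at 4.76 to 10.0 CPM on ND and at 26.6 to 53.2 CPM on CDAHFD, and Glul in males at 809 to 1102 CPM on ND and 1422 to 2067 CPM on CDAHFD.

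The first comparison asked which members respond to CDAHFD within each genotype and sex. Genes were called at a Benjamini-Hochberg adjusted p-value under 0.05 in edgeR's quasi-likelihood test, adjusted over all genes tested. In WT females 3 of the 10 members were called, and 24.1% of all genes tested were. Rhbg was up-regulated and Oat and Slc1a2 were down-regulated, where 13.9% of all genes were called higher and 10.2% lower on CDAHFD. In Cyp2b-null females 3 members were called, Rhbg and Lect2 up and Slc1a2 down, beside 30.8% of all genes (16.9% higher and 13.9% lower). In WT males 5 members were called, all up-regulated: Glul, Rhbg, Slc1a2, Axin2 and Lect2. The background there was 33% of all genes, 18% higher and 15% lower. In Cyp2b-null males 6 members were called, Glul, Rhbg and Lect2 up and Oat, Cyp2e1 and Tbx3 down, beside 37.4% of all genes (20.3% higher and 17.1% lower). The counts lay near the background in females and above it in males. With only 10 genes they are not read as a result about the members. The median log2 change of the 10 genes was -0.07 in WT females, -0.40 in Cyp2b-null females, 0.34 in WT males and 0.15 in Cyp2b-null males, beside medians over all genes between -0.02 and 0.03. These medians moved with single libraries and with the scale. In WT females they ranged from -0.27 without ND replicate 3 to 0.09 without ND replicate 4, and every omission other than that of CDAHFD replicate 2 moved the median by over 1.5 times. In Cyp2b-null females the median was -0.23 without CDAHFD replicate 3 and -0.27 without ND replicate 2, and in Cyp2b-null males it was 0.04 without ND replicate 1, 0.06 without ND replicate 3 and 0.08 without CDAHFD replicate 3. Under library size only the 4 medians were 0.25, -0.14, 0.74 and 0.53. Rnf43 and Lgr5 were called in none of the 4 comparisons.

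**Figure D2:**
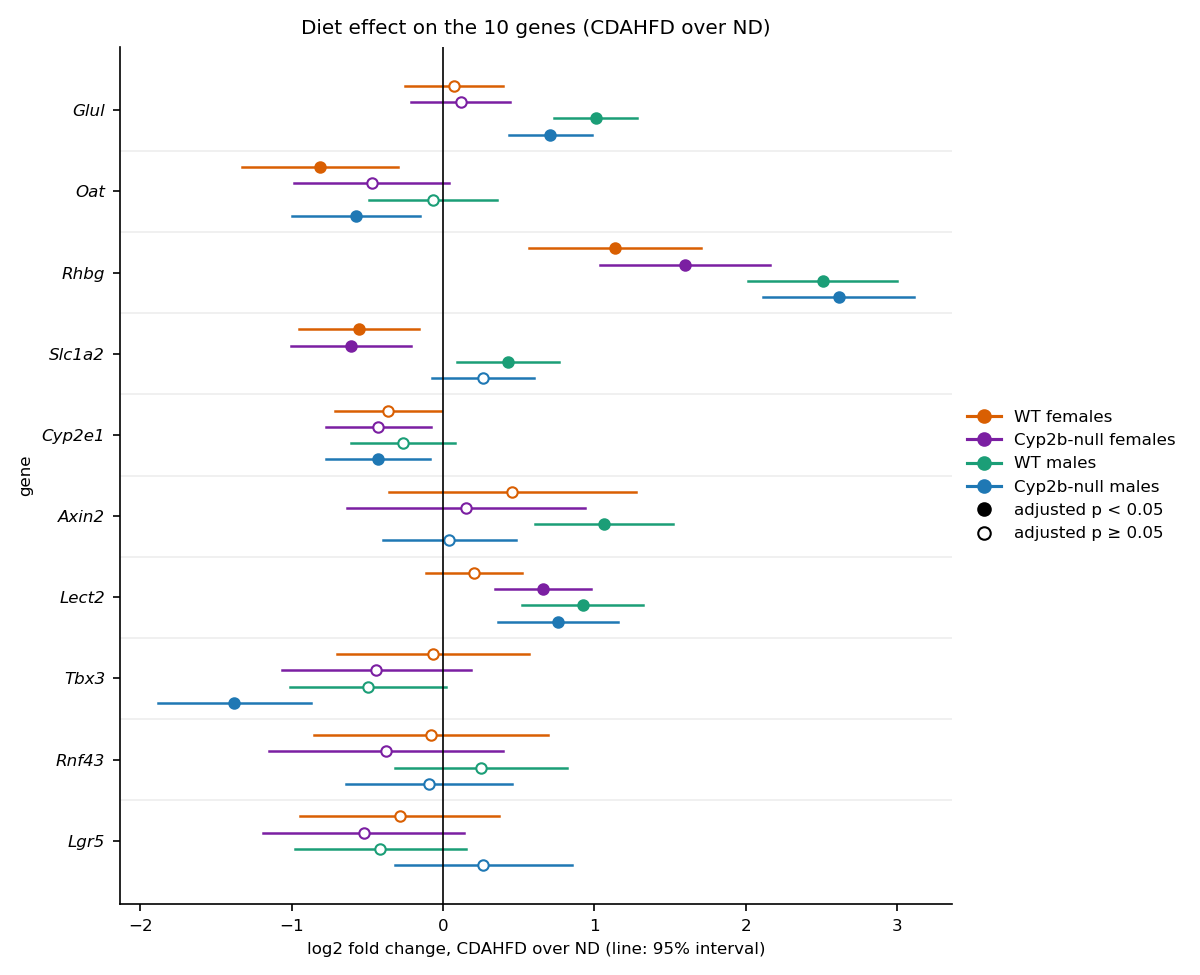
Log2 fold change, CDAHFD over ND, of the 10 genes in WT and Cyp2b-null females and males (edgeR, n = 4 per group). Points are estimates, lines are 95% intervals, and filled points have an adjusted p-value under 0.05. All 4 Rhbg estimates are filled and lie between 1.14 and 2.61, and the Glul estimates lie near 0 in females and at 1.01 and 0.71 in males.

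These changes depend on the scale. Under TMM, 8 of the 14 general hepatocyte genes were called lower on CDAHFD in WT females, 6 in Cyp2b-null females and 9 in each genotype of males. Their summed level was 182700 to 255000 CPM in ND-fed WT females and 138400 to 156800 in CDAHFD-fed WT females, and 161600 to 179100 against 104100 to 163600 CPM in WT males. Scaling on these 14 genes moved the median of all genes to 0.49 (log2) in WT females, 0.34 in Cyp2b-null females, 0.39 in WT males and 0.49 in Cyp2b-null males, and scaling by library size only moved it to 0.32, 0.28, 0.37 and 0.36. Both raise every diet effect of the members, so changes relative to the general hepatocyte genes lie above the values given here. In bulk liver, fewer cells of a type and less RNA per cell cannot be told apart.

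Glul (ENSMUSG00000026473.15, chr1:153899944-153909723 on the plus strand, GRCm38 as for all genes below) encodes glutamine synthetase, which joins ammonia to glutamate and is restricted to the hepatocytes next to the central vein. In ND-fed WT males the libraries were at 1102, 879.5, 809 and 826 CPM, and in CDAHFD-fed WT males at 1800, 1751, 2067 and 1653 CPM. Every CDAHFD library was above every ND library, and Glul rose 2.01-fold (log2 1.01, SE 0.133, adjusted p = 5.3e-06). In Cyp2b-null males ND-fed libraries were at 953, 1026, 1043 and 1099 CPM and CDAHFD-fed ones at 1628, 1422, 1883 and 1805 CPM, a rise of 1.64-fold (log2 0.71, SE 0.132, adjusted p = 2.19e-04). In females the diets overlapped. ND-fed WT females were at 1037, 1218, 1055 and 1181 CPM and CDAHFD-fed ones at 958, 1138, 1510 and 1117 CPM, with a log2 change of 0.07 and a 95% interval from -0.25 to 0.40. Cyp2b-null females had means of 1320 ± 186 CPM on ND and 1430 ± 262 CPM on CDAHFD (SD, n = 4), a log2 change of 0.12 (interval -0.21 to 0.44). Scaled on the general hepatocyte genes, the change in WT females became 0.57 and was called (adjusted p = 0.0163). Leaving out any single library of the females made no call.

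Rhbg (ENSMUSG00000104445.1, chr3:88242874-88254709 on the minus strand), an ammonium transporter of the cell membrane that lies beside glutamine synthetase in pericentral hepatocytes, showed the largest diet effect of the 10 genes in every group. ND-fed WT males were at 6.70, 5.69, 6.60 and 8.80 CPM, and CDAHFD-fed WT males at 53.2, 31.1, 45.7 and 26.6 CPM. The lowest CDAHFD library was above the highest ND library, and the rise was 5.69-fold (log2 2.51, SE 0.237, adjusted p = 8.31e-08). In Cyp2b-null males the values went from 5.91, 4.92, 4.76 and 10.0 CPM to 30.8, 37.9, 44.0 and 43.0 CPM, a 6.12-fold rise (log2 2.61, SE 0.24, adjusted p = 4.05e-08). The rise was also seen in females. ND-fed WT females were at 6.60, 6.24, 14.2 and 12.5 CPM, CDAHFD-fed ones at 16.3, 21.1, 31.6 and 18.7 CPM, and the rise was 2.20-fold (log2 1.14, SE 0.273, adjusted p = 0.00382). Cyp2b-null females rose from 14.3, 6.61, 9.36 and 8.95 CPM to 33.0, 28.3, 34.1 and 21.6 CPM, or 3.02-fold (log2 1.60, SE 0.27, adjusted p = 1.46e-04). All 4 rises were called under each alternative setting and without each single library.

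Slc1a2 (ENSMUSG00000005089.15, chr2:102658659-102790784 on the plus strand), which encodes a sodium-coupled glutamate transporter known from brain glia and placed in the liver in pericentral hepatocytes, fell in females of both genotypes and rose in WT males. ND-fed WT females were at 163, 234, 169 and 176 CPM and CDAHFD-fed WT females at 95.5, 130, 153 and 126 CPM. No library of one diet reached the other, and Slc1a2 was 1.47-fold lower on CDAHFD (log2 -0.55, SE 0.191, adjusted p = 0.0382). In Cyp2b-null females the ND libraries were at 224, 240, 235 and 192 CPM and the CDAHFD libraries at 176, 188, 93.2 and 127 CPM, with a 1.53-fold lower level (log2 -0.61, SE 0.19, adjusted p = 0.0189). In WT males it was higher: 181, 172, 130 and 145 CPM on ND and 197, 220, 207 and 222 CPM on CDAHFD, a 1.35-fold rise (log2 0.43, SE 0.163, adjusted p = 0.0479). Cyp2b-null males, at 143, 168, 163 and 196 CPM on ND and 189, 130, 253 and 233 CPM on CDAHFD, overlapped and were not called (log2 0.26, adjusted p = 0.22). These calls lay close to the threshold. Both falls in females lost their call under the hepatocyte scaling (log2 -0.05 in WT and -0.26 in Cyp2b-null females) and under library size only (-0.22 and -0.34). In WT females the call was also lost without CDAHFD replicate 1, 2 or 4 or ND replicate 2 or 4 (adjusted p = 0.121, 0.0659, 0.0768, 0.131 and 0.0565), and in Cyp2b-null females without CDAHFD replicate 3 or 4 or ND replicate 2 (adjusted p = 0.0527, 0.0554 and 0.0516). In WT males it was lost without CDAHFD replicate 2, 3 or 4 or ND replicate 3 or 4 (adjusted p = 0.0939, 0.0757, 0.0966, 0.139 and 0.11) and kept under both of these scalings. In Cyp2b-null males the rise was called under both (log2 0.64 under library size only and 0.78 under hepatocyte scaling).

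Oat (ENSMUSG00000030934.9, chr7:132557478-132576398 on the minus strand) encodes ornithine aminotransferase, a mitochondrial enzyme that makes glutamate semialdehyde from ornithine. ND-fed WT females were at 885, 1201, 1266 and 945 CPM and CDAHFD-fed WT females at 506, 706, 829 and 409 CPM. The groups were apart, and Oat fell 1.75-fold (log2 -0.81, SE 0.248, adjusted p = 0.0202). In Cyp2b-null males it went from 467, 653, 673 and 973 CPM to 458, 385, 483 and 529 CPM, groups that overlapped, with a 1.49-fold lower level (log2 -0.58, SE 0.203, adjusted p = 0.0302). Cyp2b-null females had a log2 change of -0.47 (adjusted p = 0.154) and WT males of -0.06 (adjusted p = 0.841), and the change in Cyp2b-null females was called without a filter on low counts (log2 -0.52, adjusted p = 0.0112). Both called falls were lost under hepatocyte scaling (-0.32 in WT females and -0.08 in Cyp2b-null males) and under library size only (-0.48 and -0.21). In WT females the call was also lost without CDAHFD replicate 1 or 4 or ND replicate 3 (adjusted p = 0.0597, 0.0781 and 0.0582). In Cyp2b-null males it was lost without CDAHFD replicate 1, 2 or 3 or ND replicate 4 (adjusted p = 0.0573, 0.0918, 0.0508 and 0.162), and without that ND replicate the log2 change was -0.37.

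Cyp2e1 (ENSMUSG00000025479.9, chr7:140763739-140774987 on the plus strand), the cytochrome P450 that oxidizes ethanol and other small molecules, was the most abundant member. ND-fed Cyp2b-null males were at 5417, 5947, 6788 and 7644 CPM and CDAHFD-fed ones at 5766, 3697, 4533 and 5124 CPM. The diets overlapped, and Cyp2e1 was called 1.35-fold lower (log2 -0.43, SE 0.165, adjusted p = 0.0448). In the other groups the log2 changes were -0.37 in WT females, -0.43 in Cyp2b-null females and -0.27 in WT males (adjusted p = 0.125, 0.0587 and 0.23). Cyp2b-null females were at 7513 to 8750 CPM on ND and 5393 to 6590 CPM on CDAHFD without overlap, and were called by DESeq2, without a filter on low counts and with only their own groups in the fit (adjusted p = 0.0454, 0.0306 and 0.0248). The call in Cyp2b-null males was lost under most alternatives, and the sign turned to 0.06 under hepatocyte scaling. It was lost without CDAHFD replicate 2, 3 or 4 or ND replicate 2, 3 or 4 (adjusted p = 0.152, 0.0929, 0.0536, 0.0548, 0.0956 and 0.148).

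Lect2 (ENSMUSG00000021539.9, chr13:56542464-56548502 on the minus strand) encodes a secreted protein of hepatocytes that is a known β-catenin target in the liver. In WT males it was at 123, 75.1, 124 and 69.8 CPM on ND and 238, 168, 169 and 169 CPM on CDAHFD, apart from each other, a 1.89-fold rise (log2 0.92, SE 0.191, adjusted p = 7.84e-04). Cyp2b-null males rose from 80.7, 105, 114 and 138 CPM to 175, 221, 164 and 180 CPM, or 1.70-fold (log2 0.76, SE 0.191, adjusted p = 0.00317). Cyp2b-null females rose from 174, 157, 200 and 162 CPM to 262, 267, 346 and 219 CPM, or 1.58-fold (log2 0.66, SE 0.152, adjusted p = 0.00247). The value of 346 CPM is that of replicate 3, and without it the log2 change was 0.53 and still called. In WT females the CDAHFD libraries, at 204, 211, 197 and 209 CPM, fell inside the range of the ND libraries, at 146, 153, 224 and 189 CPM (log2 0.20, interval -0.11 to 0.52). That change was called under library size only (0.53) and hepatocyte scaling (0.70). The other 3 calls of Lect2 held under each alternative and without each single library.

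Axin2 (ENSMUSG00000000142.15, chr11:108920349-108950783 on the plus strand), a scaffold of the complex that degrades β-catenin and itself a general target of the pathway, was called in WT males and in no other group. ND-fed WT males were at 3.98, 5.04, 5.12 and 4.29 CPM and CDAHFD-fed WT males at 11.6, 8.80, 9.90 and 8.56 CPM. The groups were apart, and the rise was 2.09-fold (log2 1.06, SE 0.219, adjusted p = 7.28e-04). Cyp2b-null males were at 5.25, 9.62, 6.00 and 8.50 CPM on ND and 6.33, 8.61, 7.65 and 6.87 CPM on CDAHFD, with a log2 change of 0.04 (interval -0.40 to 0.48). In females the libraries of one group varied widely: ND-fed WT females were at 5.60, 13.6, 3.05 and 9.00 CPM and CDAHFD-fed ones at 10.7, 7.76, 15.6 and 8.22 CPM (log2 0.46, interval -0.36 to 1.27). Cyp2b-null females had a log2 change of 0.15 (interval -0.63 to 0.94).

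Rnf43 and Lgr5 act at the receptor. Rnf43 (ENSMUSG00000034177.15, chr11:87662722-87735539 on the plus strand) is a ubiquitin ligase that removes Frizzled receptors from the membrane, and Lgr5 (ENSMUSG00000020140.15, chr10:115450311-115587780 on the minus strand) binds R-spondins, which hold Rnf43 back. In females, group means of Rnf43 lay between 3.39 ± 1.17 CPM (CDAHFD-fed Cyp2b-null) and 4.388 ± 1.355 CPM (ND-fed Cyp2b-null). In males, scaled separately, they lay between 4.46 ± 1.47 CPM (ND-fed WT) and 6.09 ± 1.99 CPM (ND-fed Cyp2b-null). Its log2 diet effects ran from -0.38 in Cyp2b-null females to 0.25 in WT males, with an interval from -1.15 to 0.40 in Cyp2b-null females and from -0.32 to 0.82 in WT males. Group means of Lgr5 lay between 5.90 ± 2.91 CPM (CDAHFD-fed Cyp2b-null females) and 10.4 ± 5.05 CPM (ND-fed WT males). The log2 diet effects of Lgr5 were -0.29 in WT females, -0.52 in Cyp2b-null females, -0.41 in WT males and 0.27 in Cyp2b-null males. One ND-fed WT male, replicate 1, was at 17.9 CPM and the other 3 at 7.54 to 8.37 CPM, and without it the change in WT males was -0.02. In Cyp2b-null females the change of Lgr5 was called without CDAHFD replicate 1 (log2 -0.83, adjusted p = 0.0499), and in Cyp2b-null males under hepatocyte scaling (log2 0.77, adjusted p = 0.0297).

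Tbx3 (ENSMUSG00000018604.18, chr5:119670669-119684724 on the plus strand), a T-box transcription factor and β-catenin target of the liver, was called in Cyp2b-null males and in no other group. ND-fed Cyp2b-null males were at 37.4, 67.8, 39.1 and 57.1 CPM and CDAHFD-fed ones at 21.2, 20.8, 15.4 and 20 CPM. The groups were well apart, and Tbx3 was 2.60-fold lower (log2 -1.38, SE 0.244, adjusted p = 1.28e-04), a call that held under each alternative and without each library. WT males were at 17.6, 44.5, 20.5 and 37.4 CPM on ND and 21.8, 19.0, 19.1 and 25.0 CPM on CDAHFD, and the log2 change of -0.49 was not called (adjusted p = 0.135). It was called without ND replicate 1 (log2 -0.68, adjusted p = 0.0336) and without a filter on low counts (adjusted p = 0.0167). In females the changes were -0.07 in WT and -0.44 in Cyp2b-null mice (adjusted p = 0.905 and 0.283), and the latter was called without a filter on low counts (log2 -0.50, adjusted p = 0.0397).

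Whether the diet effect differed between the sexes was tested in 1 fit to all 8 groups, with 14020 genes. In WT mice 2 members were called, Glul and Slc1a2, beside 0.97% of all genes. For Glul the male diet effect exceeded the female one by 0.96 (log2, SE 0.201, adjusted p = 0.0107), and for Slc1a2 by 1.01 (SE 0.258, adjusted p = 0.0474). The difference for Rhbg was larger, 1.39 with an interval from 0.62 to 2.17, and was not called (adjusted p = 0.0756), though DESeq2 and the fit without a filter on low counts called it (adjusted p = 0.0392 and 2.65e-04). In Cyp2b-null mice 1 member was called, Slc1a2, with a difference of 0.90 (SE 0.258, adjusted p = 0.045), beside 3.4% of all genes. Rhbg differed there by 1.04 (interval 0.26 to 1.82, adjusted p = 0.125) and was called without a filter on low counts and under hepatocyte scaling (adjusted p = 0.0157 and 0.0475). Glul differed by 0.62 (interval 0.21 to 1.03, adjusted p = 0.0771) and was called by DESeq2 (adjusted p = 0.0381). Tbx3 differed by -0.91 (interval -1.75 to -0.07, adjusted p = 0.22) and was called without a filter on low counts (adjusted p = 0.00905). For Lect2 the differences were 0.74 in WT mice (adjusted p = 0.197) and 0.12 in Cyp2b-null mice (adjusted p = 0.835), and for Axin2 0.63 and -0.08 (adjusted p = 0.741 and 0.946). The Glul difference in WT mice was called without each of the 16 libraries and lost under hepatocyte scaling, where the difference was 0.93 (adjusted p = 0.115). The Slc1a2 difference in WT mice lost its call in 12 of 16 fits without 1 library, with values between 0.88 and 1.11. In Cyp2b-null mice it was lost in 11 of 16, between 0.74 and 1.06, and without CDAHFD-fed female replicate 3 it was 0.74 (adjusted p = 0.104).

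The study's methods state that the WT mice were purchased, while the Cyp2b-null line was made by CRISPR/Cas9. Genotype therefore cannot be told apart from the source of the mice, here or in the interaction with diet. The genotype comparison asked whether the members differed between Cyp2b-null and WT mice on the same diet. None was called by edgeR between Cyp2b-null and WT females on ND, where the background was 0.0756% of all genes. At an unadjusted limit of 0.05 the count of members was 0, beside 760 of all 13226 genes. On CDAHFD none was called in females (0.0227% of all genes). At the unadjusted limit of 0.05, 771 of all 13226 genes passed, among them 1 member, Lect2. Its libraries did not overlap, at 204, 211, 197 and 209 CPM in WT and 262, 267, 346 and 219 CPM in Cyp2b-null mice, and the log2 difference was 0.41 (interval 0.10 to 0.73, adjusted p = 0.826). In males none was called on ND (0.0371% of all genes). At the unadjusted limit of 0.05, 1112 of all 13460 genes passed, among them 3 members. These were Axin2 (log2 0.64, interval 0.16 to 1.11), Tbx3 (0.74, interval 0.25 to 1.24) and Lgr5 (-0.74, interval -1.32 to -0.16), with adjusted p-values of 0.423, 0.373 and 0.456. The Lgr5 difference was -0.34 without ND-fed WT male replicate 1. On CDAHFD none was called in males (0.0297% of all genes) and 0 had an unadjusted p-value under 0.05, beside 487 of all 13460 genes. DESeq2 called 0 members in each of these 4 comparisons. Over the 10 genes the 95% intervals of these differences reached from -0.75 to 1.10 on ND and -1.02 to 0.92 on CDAHFD in females, and from -1.32 to 1.24 on ND and -0.81 to 0.63 on CDAHFD in males.

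**Figure D3:**
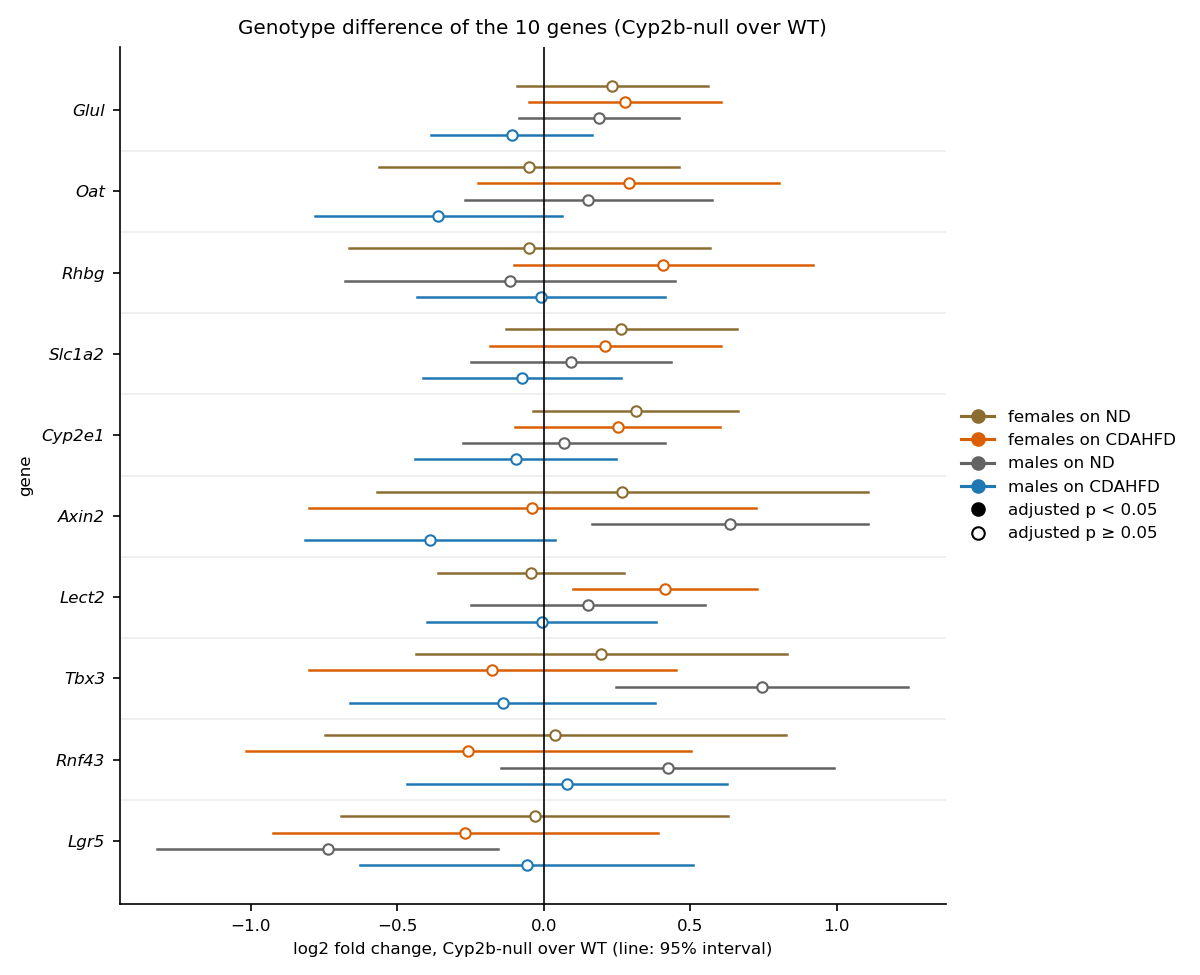
Log2 fold change, Cyp2b-null over WT, of the 10 genes on each diet in females and males (edgeR, n = 4 per group). Points are estimates, lines are 95% intervals, and open points have an adjusted p-value of 0.05 or more. All points are open, and their estimates lie between -0.74 (Lgr5, ND-fed males) and 0.74 (Tbx3, ND-fed males).

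The difference of the diet effects between the genotypes was tested as an interaction. No member was called in females, where the background was 0% of 13226 genes and 830 passed an unadjusted limit of 0.05, nor in males, where it was 0.00743% and 817 passed that limit. Lect2 in females had an interaction of 0.46 (log2, SE 0.215, unadjusted p = 0.0458, adjusted p = 0.76). In males Axin2 had -1.02 (SE 0.305, unadjusted p = 0.00305, adjusted p = 0.561) and Tbx3 -0.89 (SE 0.346, unadjusted p = 0.0184, adjusted p = 0.699). So the call of Axin2 in WT males alone and that of Tbx3 in Cyp2b-null males alone are not shown to differ between the genotypes. DESeq2 called 0 members in both interactions. Without a filter on low counts edgeR called Tbx3 for the interaction in males and for genotype on ND in males (log2 -0.88 and 0.75, adjusted p = 0.036 and 0.00105). That fit called 95 and 170 of 25760 genes for these 2 terms, against 1 and 5 of 13460 with the filter.

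The rest of the Wnt pathway was followed with lists of ligands, receptors, transducers, inhibitors and further targets. Of 13 genes for ligands, R-spondins and ligand secretion, 7 were tested. In WT females Wnt5b rose (log2 0.82, adjusted p = 0.0325) and Wnt2, an endothelial ligand of the central vein, fell (log2 -0.98, adjusted p = 0.0452). In WT males Wls, which carries Wnt ligands to the membrane, rose (1.66, adjusted p = 3.46e-05), and Porcn, which attaches their lipid, fell (-1.50, adjusted p = 0.00233). In Cyp2b-null mice 1 was called higher in females, and 1 higher and 1 lower in males. The median log2 change of the tested genes was 0.25 in WT females and -0.06 in WT males, the latter 0.32 under library size only and 0.35 under hepatocyte scaling. In WT females no ligand gene was called lower under either of these scalings or by DESeq2.

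Of 15 receptor genes, 10 were tested in females and 9 in males. The co-receptor Lrp6 and the R-spondin receptor Lgr4 were called lower in all 4 groups under TMM. In WT females the log2 changes were -0.63 for Lrp6 and -0.58 for Lgr4 (adjusted p = 0.0163 and 0.0304), and in WT males -0.71 and -0.65 (adjusted p = 0.00375 and 0.00692). Fzd1 rose in WT males (0.76, adjusted p = 0.0111). Under hepatocyte scaling both stayed below 0 in all 4 groups, and the call was kept for Lrp6 in Cyp2b-null females (log2 -0.68, adjusted p = 0.0249) and lost elsewhere. In WT females the changes were then -0.14 for Lrp6 and -0.08 for Lgr4, and in WT males -0.31 and -0.28. The median of the list went from -0.37 to 0.11 in WT females and from -0.28 to 0.12 in WT males. Of 14 transducers, among them β-catenin itself (Ctnnb1), 2 were called in Cyp2b-null females and 1 in WT males under TMM. The latter was Tcf7l2 (log2 -0.75, adjusted p = 0.0307), which lost its call under library size only and under hepatocyte scaling. By edgeR under TMM 0 transducers were called in WT females, with 1 at an unadjusted p-value under 0.05 and 0 called by DESeq2. In Cyp2b-null males 0 were called, with 2 at an unadjusted p-value under 0.05 and 1 called by DESeq2. Ctnnb1 was at 245 ± 11 CPM on ND and 253 ± 14.9 CPM on CDAHFD in WT females. Under hepatocyte scaling 6 transducers were called higher in WT females, 4 in WT males, 2 in Cyp2b-null females and 6 in Cyp2b-null males. Over all genes this scaling called, in the same order, 5925 of 13226, 5489 of 13460, 4602 of 13226 and 6829 of 13460 in either direction. The counts of transducers are therefore not read as a result about them.

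Of 10 secreted inhibitors, 2 passed the filter, and both were called higher in all 4 groups and under each scaling. Frzb had 1 to 10 counts in each ND library and at least 24 in each CDAHFD library, so it passed the filter through the CDAHFD groups and the count of 2 is no support for a direction of the list. Frzb, a soluble Frizzled-like protein that binds Wnt ligands, rose by 2.49 (log2, adjusted p = 2.74e-05) in WT females and by 3.11 (adjusted p = 4.91e-07) in WT males. Dkk3, a member of the Dickkopf family that, unlike its relatives, does not clearly bind the Wnt co-receptors, rose by 1.16 (adjusted p = 0.0168) and 2.05 (adjusted p = 6.49e-05). Both are also made outside hepatocytes. Of the 10 further Wnt targets, 8 were tested, and 3 were called higher and 0 lower in WT females, 4 and 0 in WT males, 2 and 1 in Cyp2b-null females and 3 and 0 in Cyp2b-null males. Ccnd1 and Myc, which drive the cell cycle and answer to many signals besides Wnt, led these: Ccnd1 rose by 1.01 in WT females and 2.58 in WT males (log2, adjusted p = 0.0133 and 2.09e-08), and Myc by 2.75 and 1.64 (adjusted p = 2.06e-06 and 0.0067). Tcf7, a TCF/LEF factor also known from T cells, rose by 0.82 and 1.06 (adjusted p = 0.0203 and 0.00433).

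**Figure D4:**
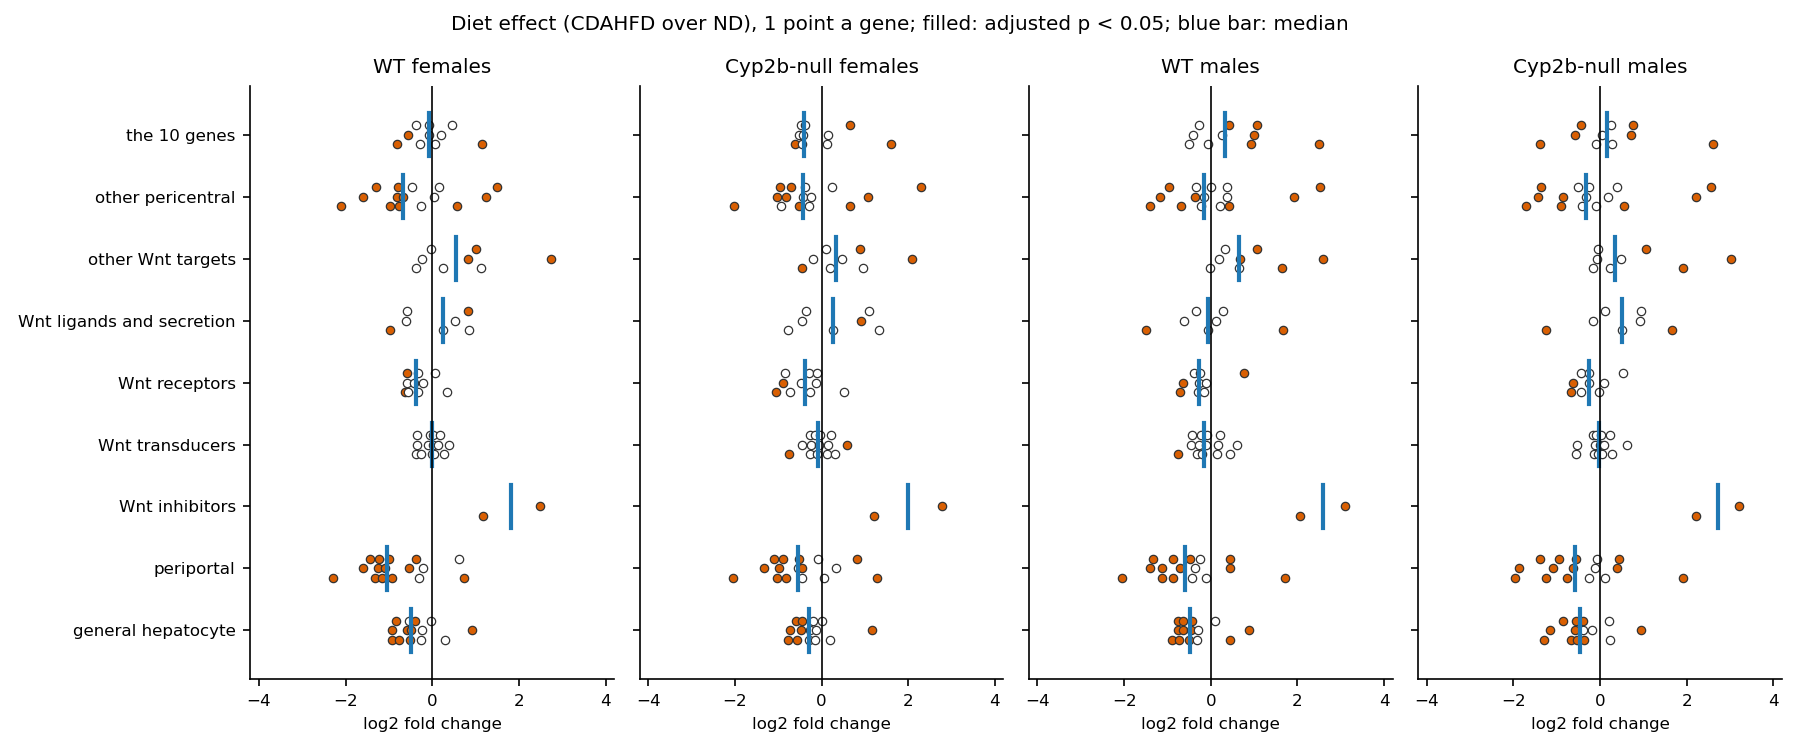
Log2 fold change, CDAHFD over ND, of the 10 genes and of 8 further lists in WT and Cyp2b-null females and males (TMM scaling, n = 4 per group). Each point is a gene, filled where the adjusted p-value was under 0.05, and the blue bar is the median of the list. The 10 genes spread on both sides of 0, the 2 Wnt inhibitors lie above 1 in each panel, and most called periportal genes lie below 0.

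Other genes of the pericentral zone did not move as a block. Of 15, all tested, 3 were called higher and 8 lower in WT females, 3 and 6 in Cyp2b-null females, and 3 and 5 in males of either genotype. Their median log2 changes were -0.67, -0.42, -0.15 (WT males) and -0.32 (Cyp2b-null males). The medians of both male groups turned positive under library size only (0.24 and 0.04) and hepatocyte scaling (0.29 and 0.17). Under either scaling 6 of these genes were called higher and 3 lower in WT males. The female medians stayed negative, at -0.35 (WT) and -0.17 (Cyp2b-null) under library size only and -0.18 and -0.11 under hepatocyte scaling. Hepatocyte scaling left 4 of these genes called higher and 4 lower in females of each genotype. Cyp2c37, a P450 that oxidizes fatty acids, fell in both sexes of WT mice, with log2 changes of -2.11 in females and -1.40 in males (adjusted p = 4.73e-06 and 4.29e-06). Gstm3, a glutathione transferase, rose by 1.48 and 2.52 (adjusted p = 1.29e-04 and 6.77e-06), and Slc13a3, a dicarboxylate transporter, rose by 1.92 in WT males (adjusted p = 1.91e-07). Cyp2a5 changed by -1.61 in WT females (adjusted p = 0.00263).

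Of 16 periportal genes, 1 was called higher and 12 lower in WT females, 2 and 9 in Cyp2b-null females, and 3 and 9 in males of either genotype. Etnppl, a phospholyase of phosphoethanolamine, fell in both sexes of WT mice, with log2 changes of -1.59 in females and -2.05 in males (adjusted p = 3.6e-07 and 7.65e-08). G6pc, the last enzyme of gluconeogenesis, fell by 2.30 in WT females (adjusted p = 1.21e-05). The medians of this list were -1.05, -0.53, -0.60 (WT males) and -0.59 (Cyp2b-null males), and stayed negative under hepatocyte scaling, at -0.56, -0.24, -0.21 and -0.11.

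Markers of other cells moved with the diet too. The summed level of 8 stellate cell and myofibroblast markers was 52.1 to 109.8 CPM in ND-fed and 340 to 673 CPM in CDAHFD-fed libraries over all 8 groups, with 6 or 7 of the 8 genes called higher in each comparison. That of 8 macrophage markers was 122 to 426 CPM against 738 to 1980 CPM, with 6 of 7 tested genes called higher and Trem2 at a count of 0 in every library. The 6 cholangiocyte markers summed to 20.4 to 62.0 CPM against 97.6 to 314 CPM. Of these, 2 of 5 tested genes were called higher in WT females and in males of either genotype and 3 in Cyp2b-null females. Most of the sum was Spp1, a secreted phosphoprotein also made by other cells, at 17.4 ± 6.99 CPM on ND and 136.5 ± 62.1 CPM on CDAHFD in WT males. The 5 cycling genes summed to 10.6 to 20.3 CPM against 40.2 to 65.8 CPM, with 4 called higher in WT females and 5 in each other group. The 7 markers of endothelial cells, some of which make the pericentral Wnt ligands, summed to 110.4 to 234 CPM on ND and 102.5 to 212.5 CPM on CDAHFD. Under TMM, 2 of these were called lower in WT females and 4 lower in Cyp2b-null females. In males 2 were called higher and 2 lower in WT and 4 higher in Cyp2b-null mice. Under hepatocyte scaling 3 were called higher and 1 lower in WT females, and 2 lower in Cyp2b-null females. In males 2 were then called higher and 0 lower in WT and 4 higher in Cyp2b-null mice. The median of the list in WT females went from -0.34 to 0.15. The 8 lymphocyte markers summed to at most 21.1 CPM in any library, and 3 of them in females and 2 in males passed the filter. The part of these shifts in the members' changes was not tested.

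Within groups some members varied together from mouse to mouse. For each library the deviation of log2 CPM from its group mean was taken and correlated between members over the 32 libraries, as a description without a test. Of 45 pairs, 34 had a positive correlation and 7 were above 0.5, with a median of 0.23. The highest were Glul with Slc1a2 (Pearson's r 0.73), Axin2 with Tbx3 (0.69) and Oat with Slc1a2 (0.63). Lect2 with Tbx3 was lowest, at -0.41. Lgr5 went with Slc1a2 (0.54) and Glul (0.51). Both genes of a pair are read from the same libraries and share their depth and composition. CDAHFD-fed Cyp2b-null female replicate 3, the library apart, enters every pair. It deviated by -1 for Axin2, -0.75 for Lgr5, -0.72 for Rnf43, -0.59 for Slc1a2, -0.58 for Oat, -0.55 for Tbx3 and -0.35 for Glul. Its deviations for Rhbg, Cyp2e1 and Lect2 were positive. The correlations were not computed without this library.

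**Figure D5:**
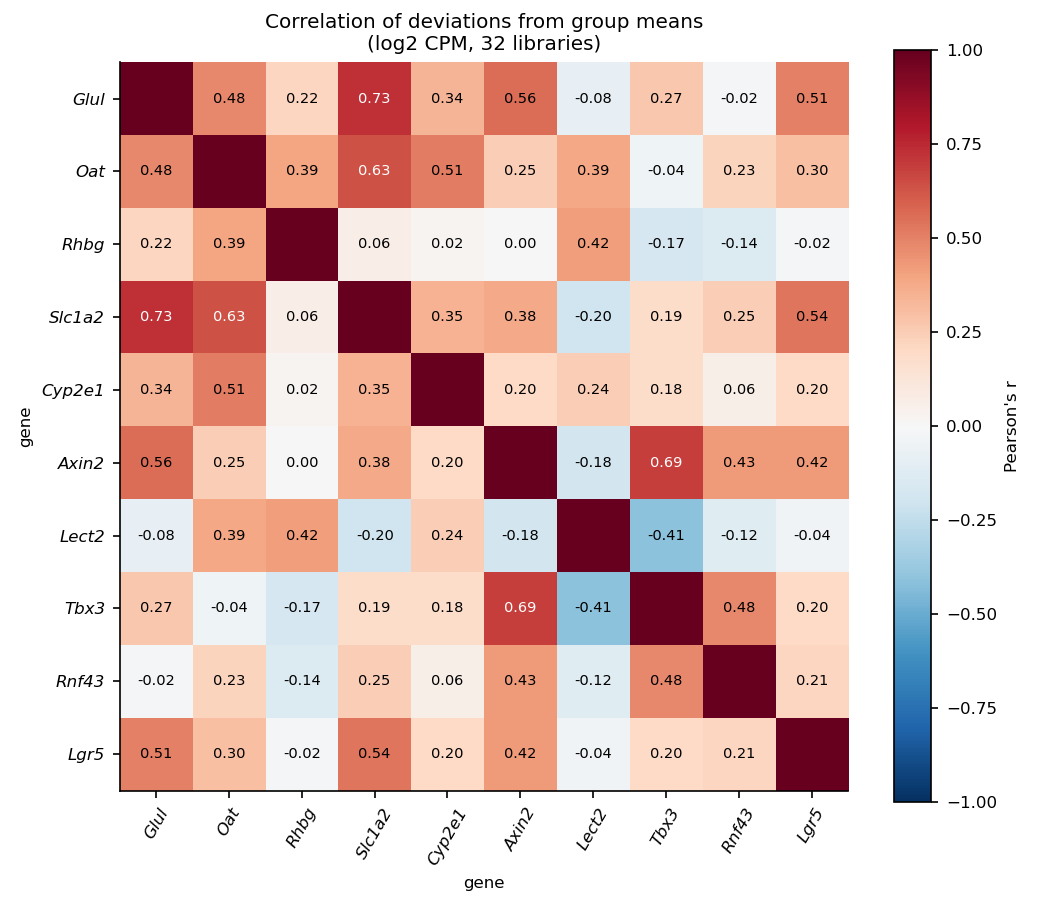
Pearson correlation between the 10 genes of the deviations of log2 CPM (prior count 2) from the group mean, over 32 libraries in 8 groups. Red is positive and blue negative. Glul, Oat and Slc1a2 form a positive block (0.48 to 0.73), Axin2 and Tbx3 are at 0.69, and Lect2 is at -0.41 with Tbx3.

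Across the 8 group means, the 5 genes whose log2 CPM followed Glul most closely were Ndel1, Sh3glb1, Plekhb2, Tbc1d22a and Kifap3, with Pearson's r from 0.94 to 0.95. The 10355 genes ranked had means of 5 CPM or more. Of the other members ranked, Rhbg came nearest (r 0.88, rank 57), then Lect2 (0.66), Axin2 (0.63) and Slc1a2 (0.46), while Lgr5, Oat, Cyp2e1 and Tbx3 were at -0.24, -0.30, -0.43 and -0.65. Rnf43 was below 5 CPM. These are values over 8 means, scaled separately in each sex, and carry no test.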

How the data were processed

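Liver RNA was sequenced in 32 libraries, 4 per group. Each was taken as 1 mouse, and if any share a mouse the p-values measure technical spread in part. The authors ran FastQC and Trimmomatic on the reads, used GSNAP for alignment (GRCm38.p6) and featureCounts of Subread for counting, and deposited raw counts per gene, 1 table per sex. Versions, strand and multimapping settings are not given in the sources used here. Nothing in the labels pairs mice across groups.

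Counts were analysed in edgeR 4.0.16 (R 4.3.3) with filterByExpr (minimum count 10, minimum total 15), TMM scaling and a quasi-likelihood fit to the 4 groups of each sex. The sex difference of the diet effect came from 1 fit to 8 groups. The Benjamini-Hochberg method was applied over every gene tested, with a limit of 0.05. CPM were scaled separately in each sex, so levels set across sexes are not on 1 scale. Levels between genes were compared per kilobase of exon. DESeq2 1.42.0, other scalings and filters, other sets of libraries, a replicate block and the omission of each library were tried. The libraries of the study's heat maps leave out CDAHFD-fed Cyp2b-null female replicate 3, the library apart, and CDAHFD-fed Cyp2b-null male replicate 4. Figures were drawn with matplotlib 3.10.9 in Python 3.11.15.

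The members and gene lists were chosen with earlier results of these data known. All 10 members are named. From each other list, at most 3 genes per sex are named, those called with the largest change in WT mice, or the most abundant where none was called. Promoters are from RefSeq.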

Additional observations from a re-analysis of the deposited data

Results flagged for a closer look

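In 3 groups of 4 libraries, a member had 1 library far from the others by Dixon's criterion, out of 80 member and group combinations examined, and chance marks about 1 in 20. In CDAHFD-fed WT males, Lect2 was at 238.3 CPM in replicate 1 and at 167.8 to 169.4 CPM in the others, and without that library the diet effect of Lect2 went from 0.92 to 0.80 (log2, edgeR adjusted p = 0.00316). In ND-fed Cyp2b-null females, Lgr5 was at 12.09 CPM in replicate 3 and at 6.98 to 7.595 CPM in the others. In ND-fed WT males, Lgr5 was at 17.92 CPM in replicate 1 and at 7.541 to 8.371 CPM in the others. Without it the genotype difference of Lgr5 on ND in males went from -0.74 to -0.34 (adjusted p = 0.703).

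The diet effect differed between the sexes for Glul in WT mice, by 0.9574 (log2, male minus female), and for Slc1a2 by 1.006 in WT and 0.8983 in Cyp2b-null mice. Of these, Glul was called without each single library and both Slc1a2 differences lost their call without any of several libraries. Females and males were scaled together in this fit.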

How the results depend on the processing

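The log2 changes of the 10 genes over 12 comparisons were recomputed, giving 1060 values outside the omission of single libraries. Of these 1013 kept their side of the threshold, 25 lost and 21 gained a call, and of the called changes 1 turned its sign: Cyp2e1 on diet in Cyp2b-null males became 0.061 (adjusted p = 0.737) with scaling on general hepatocyte genes. A further 30 changes that were called in neither fit also turned their sign, and 26 of the 31 sign changes came with library size only or hepatocyte scaling. Without a filter on low counts, 6 members were called for diet in Cyp2b-null females, 1 for genotype on ND in males, 1 for the diet by genotype term in males and 3 for the sex difference in Cyp2b-null mice. Over all genes the same fits called, in this order, 4269 of 25490, 170 of 25760, 95 of 25760 and 923 of 27613. The sex difference in Cyp2b-null mice gave 2 member calls with DESeq2. It gave 0 with the libraries of the study's heat maps, with only its own groups in the fit and with a replicate block. In WT mice it gave 1 with a filter of 1 CPM, library size only, RLE or the replicate block, and 0 with hepatocyte scaling. The causes were not tested.

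Omitting 1 library at a time gave 1280 values, of which 49 lost and 8 gained a call and 95 turned their sign, none of them a called change. Members called then ranged from 1 to 3 for diet in WT females, from 1 to 3 for the sex difference in WT mice and from 0 to 2 in Cyp2b-null mice. The deviations of same-numbered libraries correlated with r from -0.19 to 0.31 over 8 comparisons, with at most 2 of 4 pairs over 0.1 in any, so the numbers were not taken to pair the mice. In WT males on diet, r reached 0.20 and 5 of 8 libraries correlated best with their own number, as a hint from the data. Of the diet calls the replicate block lost that of Slc1a2 in WT males (adjusted p = 0.0632) and gained that of Cyp2e1 in Cyp2b-null females (log2 -0.44, adjusted p = 0.0307).

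Over all genes, calls for diet in WT females went from 3193 to 5925 with hepatocyte scaling. For genotype without a filter they went from 10 to 122 and 3 to 69 in females and from 5 to 170 and 4 to 51 in males (ND and CDAHFD), and with DESeq2 from 5 to 71 on ND in males, from 10 to 23 on ND and from 3 to 5 on CDAHFD in females. On ND in males the 5 became 3 with library size only, 2 with only its own groups and 8 with the replicate block, and on CDAHFD in males the 4 became 2 with the heat map libraries. The diet by genotype term went from 0 to 46 without a filter and to 1 with DESeq2 or the filter of 1 CPM in females, and in males from 1 to 95 without a filter, 9 with DESeq2 and 2 with library size only. The sex difference went from 136 to 469 without a filter, 79 with only its own groups and 76 with hepatocyte scaling in WT mice, and from 477 to 923 without a filter and 245 with the heat map libraries in Cyp2b-null mice. The scalings of the gene lists and of Lrp6 and Lgr4 were chosen after seeing the data. Limits are the low counts of Rnf43, Axin2, Lgr5 and Rhbg, 4 libraries per group, the unknown strand setting, and bulk tissue, in which markers of other cell types moved with diet.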
